A study of Mus musculus with 4 samples.

Results

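The potassium channel genes described here are the 92 of 33696 listed mouse genes whose symbol is Kcn followed by lower-case letters and a number. The rule uses symbols alone and no measured value. It takes in 40 pore subunits of voltage-gated channels, 15 inward rectifiers, 14 2-pore-domain channels, 8 channels gated by calcium or sodium, and 15 auxiliary subunits. The study dissociated mouse Achilles tendons and sequenced single-cell RNA libraries that carry a unique molecular identifier (UMI) on each captured transcript. There were 4 libraries: uninjured tendon at postnatal day 3 (neonatal control), injured tendon at postnatal day 3 (neonatal injury), uninjured tendon at 6 to 8 weeks (adult control) and injured tendon at 6 to 8 weeks (adult injury). The labels give no genotype, strain, sex, kind of injury, time since injury or number of animals per library. Each group is 1 library, so no comparison between groups has a replicate check and no p-value is given.

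Potassium channels let potassium ions leave or enter a cell along their electrochemical gradient and hold the resting membrane potential near that of potassium. In the wall of small vessels they set the tone of smooth muscle: opening hyperpolarises the cell, closes voltage-gated calcium channels and relaxes it. In glia they clear potassium released by axons and shape the excitability of the nerve, in leukocytes they sustain the driving force for calcium entry, and in tendon and other connective tissue cells they take part in responses to stretch. The pore genes encode the conducting subunits, and the auxiliary genes (Kcnab, Kcne, Kcnip, Kcnmb) encode partners that change gating, calcium sensitivity or transport to the surface.

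The barcodes kept per library numbered 10429, 14885, 6113 and 4625, in the order neonatal control, neonatal injury, adult control, adult injury, and library totals ran from 68644322 to 128626912 UMIs. Cells were assigned by 10 marker genes per class, none of them a potassium channel. The classes are called mural-like (smooth muscle and pericytes), Schwann-like, muscle-like (satellite cells and differentiating muscle), stromal-like (tenocytes and fibroblasts) and immune-like, and are named without the suffix from here on. A median of 6 to 9 of the 10 markers of its own class was detected in the cells of each class in each library. In the same library order there were 545, 341, 354 and 107 mural cells, 526, 1186, 73 and 13 Schwann cells, 444, 174, 55 and 8 muscle cells, 4879, 7351, 3297 and 1621 stromal cells and 662, 1720, 312 and 1686 immune cells. Adult injury Schwann and muscle cells, at 13 and 8, were too few to compare. Pairs of libraries shared 3 to 44 cell barcodes. The libraries also differed in sex-linked transcripts. Xist in stromal cells was at 0.0490 counts per 1000000 (CPM) in the neonatal control and between 626 and 1177 CPM in the other libraries. Y-linked transcripts were at 261, 51.8, 0.427 and 1.12 CPM in the same library order, so the neonatal injury library held both kinds. Sex thus moves with age and with neonatal injury and cannot be told apart from them.

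Levels are in CPM: the UMIs of a gene per 1000000 of all genes, both totalled across 1 class and 1 library, so levels are compared only within a gene. Each ratio is on the log2 scale, computed after adding 0.5 counts to both sides, and the interval after a ratio is an exact 95% interval for counting error. UMIs of a gene clump within cells, so these intervals are narrower than the true uncertainty. All 92 members had at least 1 UMI in the 5 classes together. Of these, 17 had fewer than 20 UMIs, among them Kcna3 and Kcnj11, the latter a pore of ATP-sensitive channels in pancreas and heart. 41 members reached a mean of 5 CPM in at least 1 class: 16 voltage-gated pores, 5 inward rectifiers, 6 2-pore-domain channels, 6 calcium- or sodium-activated channels and 8 auxiliary subunits. By class, 20 members reached that level in mural, 19 in Schwann, 14 in muscle, 21 in stromal and 10 in immune cells.

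20 members led in a class, which means a mean of at least 5 CPM there, weighting libraries equally, and at least 4-fold the next of the 5 classes. Of the 41 members at that level in any class, 7 led in mural cells (1.97% of all 13891 genes at that level did), 7 in Schwann cells (3.59% of genes), 3 in stromal cells (1.77%), 2 in immune cells (6.83%) and 1 in muscle cells (1.61%). By family the leaders were 7 voltage-gated pores, 3 inward rectifiers, 2 2-pore-domain channels, 2 calcium- or sodium-activated channels and 6 auxiliary subunits.

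**Figure D1:**
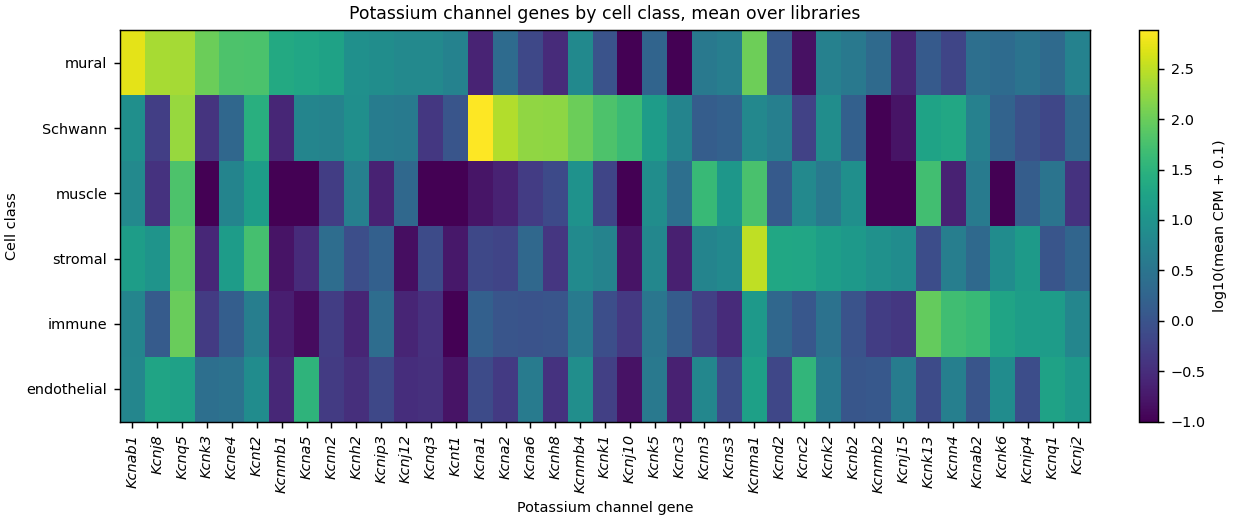
Potassium channel genes reported here with a mean of at least 5 CPM in a class (horizontal, ordered by the class where they are highest) in the 5 classes and endothelial cells (vertical), with colour as log10 of mean CPM plus 0.1 over libraries with at least 30 cells. Kcna1, Kcna2, Kcna6, Kcnh8 and Kcnj10 are brightest in the Schwann row and Kcnk3 and Kcnmb1 in the mural row, while Kcnq5 is bright in all 5 classes.

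Start-site windows from RefSeq (GRCm38.p6, 250 bases before to 50 after the annotated start) are shown for 3 members that the mural and stromal results turn on: Kcnj8 and Kcnmb1, which led in mural cells, and Kcnj15, which was higher in stromal cells after injury at both ages. Capitals mark CG dinucleotides, the sites at which mammalian DNA is methylated. Kcnj8 at chr6:142571565-142571864, minus strand, holds 9 CG, Kcnmb1 at chr11:33962763-33963062, plus strand, holds 1, and Kcnj15 at chr16:95257308-95257607, plus strand, holds 2.
Kcnj8: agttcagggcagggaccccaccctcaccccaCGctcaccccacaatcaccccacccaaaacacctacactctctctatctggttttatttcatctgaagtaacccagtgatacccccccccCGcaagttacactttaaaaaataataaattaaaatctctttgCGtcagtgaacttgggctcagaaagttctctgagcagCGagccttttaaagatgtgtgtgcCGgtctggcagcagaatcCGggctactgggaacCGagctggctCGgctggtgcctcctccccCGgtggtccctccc
Kcnmb1: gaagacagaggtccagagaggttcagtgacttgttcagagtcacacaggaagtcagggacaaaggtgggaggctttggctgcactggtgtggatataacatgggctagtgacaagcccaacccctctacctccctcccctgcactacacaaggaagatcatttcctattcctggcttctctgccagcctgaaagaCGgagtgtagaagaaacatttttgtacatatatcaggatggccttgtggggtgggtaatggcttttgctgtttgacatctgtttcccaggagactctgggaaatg
Kcnj15: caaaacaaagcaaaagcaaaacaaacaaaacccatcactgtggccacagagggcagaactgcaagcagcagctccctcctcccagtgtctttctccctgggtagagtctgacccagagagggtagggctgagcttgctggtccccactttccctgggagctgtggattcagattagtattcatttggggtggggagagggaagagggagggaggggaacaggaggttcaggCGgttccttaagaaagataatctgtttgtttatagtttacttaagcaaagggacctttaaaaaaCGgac
Over 32851 windows of this length the median was 7 CG, and 23.3% of windows held at most 2, as do those of Kcnmb1 and Kcnj15. For 67 of the 92 members, 92 windows were found, with a median of 9 CG. The CArG box, searched on both strands because smooth muscle genes often carry it, was found in 0 of these windows and in 1.63% of all windows. The counts say nothing of the methylation or factor binding of these windows in tendon, which were not measured.

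The mural leaders comprise 4 pore genes and 3 auxiliary genes. Kcnj8, the pore of the ATP-sensitive potassium channel of vascular cells, was counted at 217, 326, 239 and 161 CPM in the neonatal control, neonatal injury, adult control and adult injury libraries, 23.3-fold over stromal cells, the next class. The injured library was above its control in the neonate and below it in the adult, where the parts of the class differed: Kcnj8 was at 40.4 CPM in the control and 96.4 after injury in smooth muscle (1.25, 0.79 to 1.72) and at 869 and 272 CPM in pericytes (-1.68, -1.94 to -1.42). A Kcnj8 UMI was found in 60.0%, 53.1%, 33.6% and 64.5% of mural cells, against 10.7%, 6.64%, 1.85% and 4.57% of stromal cells, 3.29% to 11.2% of endothelial cells and 0.291% to 1.06% of immune cells. Endothelial cells, outside the 5 classes, held Kcnj8 at a mean of 18.15 CPM, above the stromal mean of 10.1 CPM. The median depth in the neonatal control was 8445 UMIs in mural and 9879 in immune cells. With each cell thinned to 2000 UMIs the mural shares were 33.4%, 40.0%, 22.7% and 26.0%. Its partner Abcc9, the sulfonylurea receptor that completes this channel and the next protein-coding gene to Kcnj8 on chromosome 6, was at 475, 1006, 439 and 760 CPM in the same cells.

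Kcnk3, an acid-sensitive 2-pore-domain channel that carries a background current, was at 45.1, 146, 85.7 and 138 CPM in mural cells, with a mean 273-fold over the next class. The injured library was above its control at both ages. Kcnab1, a beta subunit that binds voltage-gated channels of the Kcna family, was at 395, 603, 827 and 312 CPM, 37.5-fold over the next class. Kcnmb1, the beta subunit that raises the calcium sensitivity of the large-conductance channel in smooth muscle, was at 8.50, 13.9, 58.1 and 11.2 CPM and stood highest in the adult control. Kcne4, a single-pass subunit that dampens several voltage-gated channels, was also highest in the adult control, at 37.8, 39.9, 114 and 57.3 CPM. Kcnt1, a sodium-activated channel, was at 2.57, 2.42, 13.4 and 1.98 CPM. Kcnq3, a pore of M-type channels, was instead high in the injured libraries, at 0.791, 13.3, 1.49 and 10.5 CPM.

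These leaders rested unequally on single libraries. Without the adult control library Kcne4 and Kcnt1 no longer led in mural cells, and without the neonatal injury library Kcnq3 no longer led. The 22 Kcnq3 UMIs of the neonatal injury lay in 10 cells, 7 of them in 1 cell. Kcnj8, Kcnk3, Kcnab1 and Kcnmb1 led with any library left out.

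Mural cells are a mixture, and their 2 parts carried different channels. Cells with a UMI for a larger share of 8 smooth muscle markers than of 6 pericyte markers made up 38.9%, 45.5%, 68.9% and 54.2% of mural cells in the 4 libraries, and pericyte cells 55.1%, 49.0%, 28.0% and 39.3%. Over all libraries, Kcnj8 was at 417 CPM in pericytes and 78.8 in smooth muscle. Kcnab1 had the opposite order, at 51.5 CPM in pericytes and 939 in smooth muscle, as had Kcnmb1 at 5.51 and 37.3. Kcnma1, the pore of the large-conductance calcium-activated channel to which Kcnmb1 binds, was at 28.4 CPM in pericytes and 182 in smooth muscle. Kcnk3 was at 47.9 and 115 CPM, and Kcnt1 at 1.27 and 8.62. Kcne4 had no single order: it was at 39.8 CPM in pericytes and 35.3 in smooth muscle in the neonatal control, 22.2 and 55.9 in the neonatal injury, 145 and 105 in the adult control, and 74.2 and 47.0 in the adult injury. Kcnq3 was higher in pericytes, at 8.05 against 1.06. No potassium channel gene was used to split the cells.

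**Figure D2:**
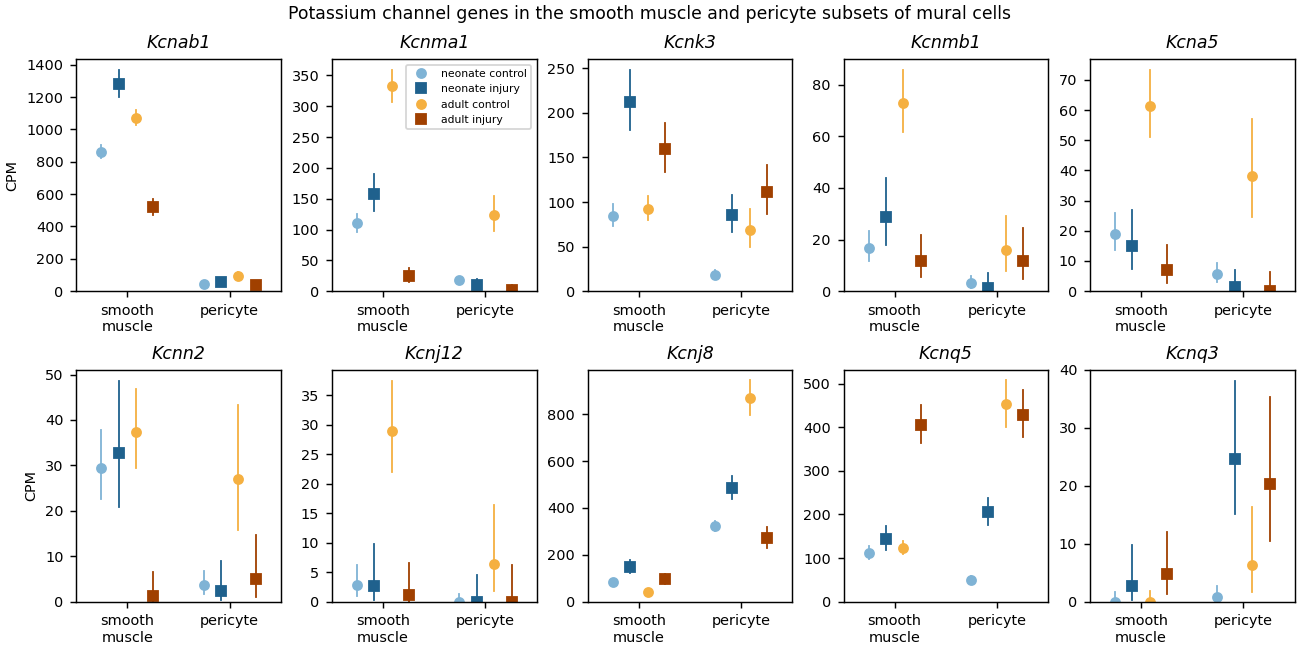
CPM of 10 potassium channel genes in smooth muscle and pericyte cells of the mural class, 1 point per library with a 95% Poisson interval. Kcnj8 is higher in pericytes and Kcnab1 in smooth muscle in all 4 libraries, and smooth muscle Kcnma1, Kcnmb1 and Kcna5 are highest in the adult control.

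Between the uninjured libraries, mural potassium channel genes were mostly lower in the neonate. Of 27 members with at least 20 UMIs over both libraries, 3 were at least 2-fold higher in the neonate (15.6% of all genes were) and 16 at least 2-fold lower (11.6% of all genes). The members' median log2 ratio was -1.26, beside 0.06 for all genes tested. Kcnma1 was at 56.1 CPM in the neonatal and 277 in the adult control, a log2 ratio of -2.30 (-2.51 to -2.10). The largest differences were in Kcnj12, an inward rectifier of muscle and heart, at 1.19 and 23.1 CPM (-4.18, -5.78 to -3.08), and Kcnt2, a sodium-activated channel, at 5.54 and 76.3 CPM (-3.76, -4.41 to -3.21). Kcnh2, the rapid delayed rectifier known from heart, was at 3.16 and 22.7 CPM, and Kcna2 at 0.593 and 7.45 CPM. Higher in the neonate were Kcnmb4, Kcnb2 and Kcng2, with log2 ratios of 3.45, 3.02 and 2.86.

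The share of smooth muscle and its marker level moved with this comparison. The 8 smooth muscle markers summed to 10322 CPM in the neonatal and 19478 CPM in the adult control. Within smooth muscle cells alone the neonate remained lower for Kcnma1 (-1.59), Kcnmb1 (-2.11), Kcnt2 (-3.64) and Kcna5 (-1.68). Kcnab1, at -0.32, and Kcnk3, at -0.12, were close to level there. In pericytes both were lower in the neonate, Kcnab1 at -1.16 (-1.62 to -0.67) and Kcnk3 at -1.94 (-2.57 to -1.31). Kcnj8 went opposite ways in the parts: it was higher in the neonate in smooth muscle (1.06, at 84.4 and 40.4 CPM) and lower in pericytes (-1.43, at 323 and 869 CPM). Cycling markers summed to 480 CPM in the neonatal and 2.61 CPM in the adult control, and their part in these ratios was not tested.

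After adult injury mural potassium channel genes were mostly lower than in the adult control. Kcnq5 (203 and 452 CPM) and Kcnk3 (85.65 and 138 CPM), both high in the control, were higher after injury. Of 21 members, 12 were at least 2-fold lower (12.4% of all genes) and 4 at least 2-fold higher (17.8%), and the median log2 ratio was -1.41 beside 0.18 for all genes. Kcnma1 was at 277 CPM in the control and 14.5 after injury (-4.23, -4.94 to -3.65). Kcna5, a voltage-gated pore of arterial smooth muscle, was at 55.1 and 4.61 CPM (-3.48, -4.92 to -2.50). Endothelial cells, outside the 5 classes, held Kcna5 at a mean of 33.1 CPM, above the mural mean of 19.8. In mural cells Kcnj12 was at 23.1 and 0.659 CPM with 1 UMI left (-4.56, -10.46 to -2.60), and Kcnh2 at 22.7 and 1.98 CPM (-3.31, -5.84 to -1.91). Because this comparison and the age comparison share the adult control library, their ratios are not independent of each other. Within smooth muscle cells, of which the injured library had 58, Kcnma1 was still lower at 24.7 against 332 CPM (-3.72), Kcnmb1 at 11.8 against 72.9 (-2.57), Kcna5 at 7.05 against 61.4 (-3.01) and Kcnab1 at 520 against 1073 (-1.05). In pericytes, Kcna5 had no UMI in the 42 injured cells and was at least 7.56-fold lower, and Kcnma1 was at 1.69 CPM with 1 UMI against 124 CPM. The smooth muscle markers, at 19478 CPM in the adult control and 5438 after injury, and Myh11 among them, at 3909 and 694 CPM, moved the same way. Cycling markers were at 2.61 CPM in the control and 393 after injury, and endothelial markers at 116 and 573. Their part in the channel ratios was not tested.

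Neonatal injury gave another pattern in mural cells. 7 of 23 members were at least 2-fold higher (9.45% of all genes) and 2 lower (5.71%), with a median of 0.45 beside 0.12 for all genes. Kcnma1 was at 56.1 and 76.3 CPM, so that in the class as a whole it was not lower after injury in the neonate. In smooth muscle it was at 110 CPM in the control and 158 after injury (0.52, 0.19 to 0.85). In pericytes it was at 17.5 and 9.87 CPM, with an interval that holds 0 (-0.75, -2.12 to 0.27). Kcnt2 was at 5.54 CPM in the control and 62.3 after injury (3.48, 2.88 to 4.15), and was higher in smooth muscle (4.45) and pericytes (2.86) alike. Kcnk3 was 1.69 higher (1.43 to 1.96), in smooth muscle 1.33 and in pericytes 2.25. Kcnb2 was lower, at 3.03 against 10.5 CPM (-1.67, -3.47 to -0.48).

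3 of 17 members tested at both ages were at least 2-fold higher after both injuries in mural cells (2.60% of all genes): Kcnq3 with log2 ratios of 3.94 and 2.70, Kcnip3, a calcium-binding partner of Kcnd channels, with 2.41 and 1.46, and Kcnq5, another M-type pore, with 1.26 and 1.15. Kcnq5 stood at 73.9, 177, 203 and 452 CPM in the 4 libraries. Its excess lay in different cells at the 2 ages: in the neonate in pericytes (2.05, smooth muscle 0.37) and in the adult in smooth muscle (1.71, pericytes -0.08). When each cell was weighted equally, the adult Kcnq3 ratio was 0.50 in place of 2.70. Kcnj2, an inward rectifier, was the 1 member at least 2-fold lower after both injuries (1.26% of all genes), at -1.36 with an interval that holds 0 (-3.92 to 0.14) in the neonate and -1.5 in the adult.

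**Figure D3:**
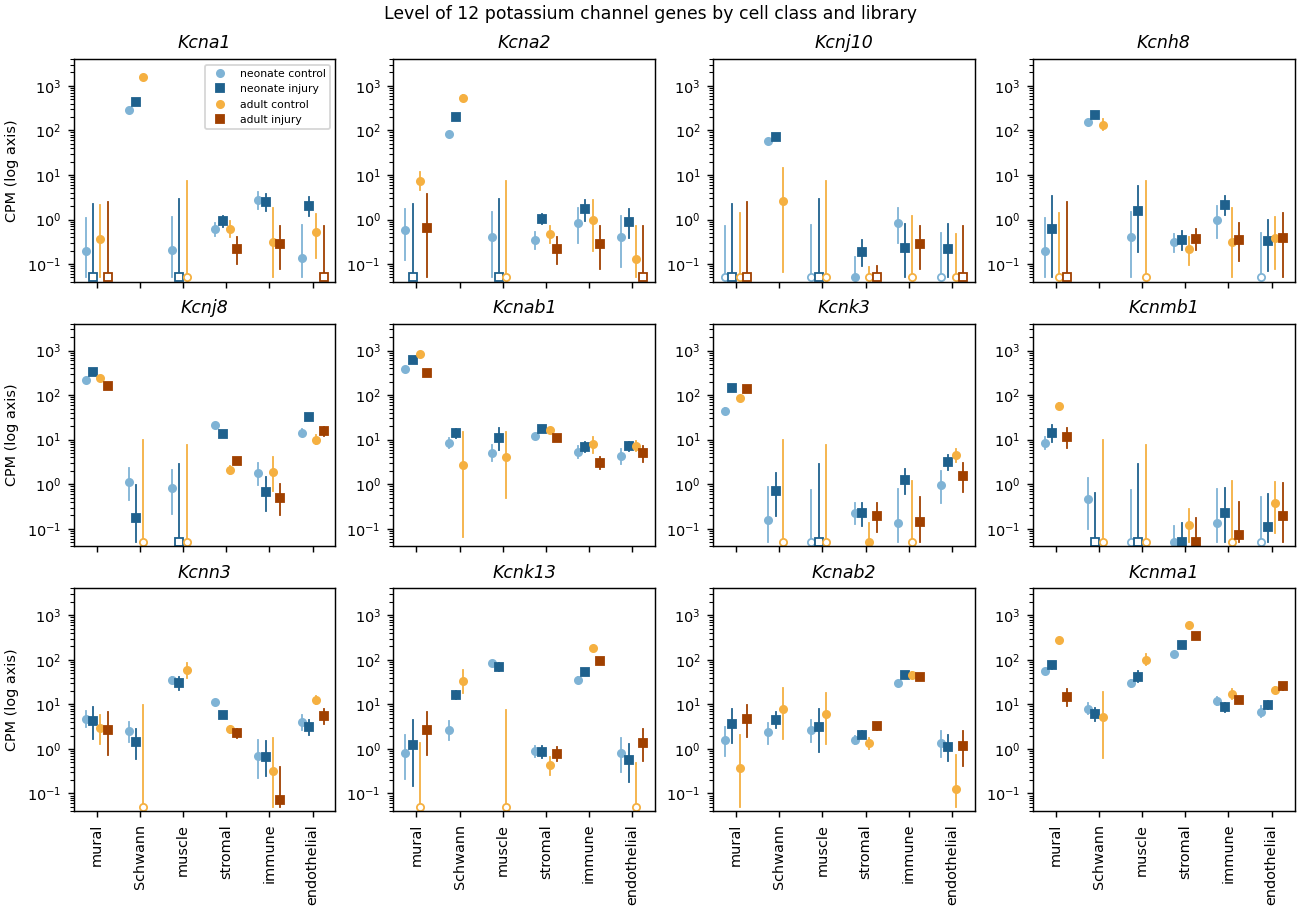
CPM (log axis) of 12 potassium channel genes in 5 classes and endothelial cells, 1 point per library with a 95% Poisson interval for counting error, where open markers stand for 0 UMIs and values under 0.05 CPM are drawn at 0.05. Mural Kcnma1 and Kcnmb1 are highest in the adult control, Schwann Kcna1 lies between 289 and 1570 CPM, and muscle Kcnk13 is open in the adult control.

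Genes of vessel excitability outside the rule were counted for the same mural cells from a list of 21 calcium, sodium and related channels, of which 16 could be compared by age. In the neonate 0 were at least 2-fold higher (15.6% of all genes were) and 10 lower (11.6%), among them Scn7a (-2.62) and Ryr2 (-1.76). After adult injury 6 of 16 were lower (12.4% of all genes), with Ryr2 at -3.17, and 5 were higher (17.8%). After neonatal injury 2 of 15 were higher (9.45%) and 0 lower (5.71%). Trpc6, a gene of this list, was also a marker by which mural cells were assigned, so its level is not independent of that choice. It was at 67.8 CPM in the neonatal control and 150.7 after neonatal injury. In the adult it was at 92.35 CPM in the control and 268.2 after injury. Trpc6 is thus among the genes counted as higher after each injury. Cacna1c, the pore of the L-type calcium channel whose opening the potassium channels oppose, was at 351, 596, 897 and 897 CPM and did not share the low adult injury level of Kcnma1.

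The Schwann leaders were the 3 Kcna pores Kcna1, Kcna2 and Kcna6, which form fast delayed rectifiers near nodes of Ranvier and in myelinating glia, with Kcnh8, Kcnj10, Kcnk1 and Kcnmb4. Kcna1 was at 289, 426 and 1570 CPM in the neonatal control, neonatal injury and adult control, 523-fold over the next class. A Kcna1 UMI was found in 77.4% (73.6 to 80.9), 71.2% (68.5 to 73.7) and 93.2% (84.7 to 97.7) of Schwann cells, against 0.555% to 0.738% of stromal cells, whose median depth was at or above that of Schwann cells (11401 and 10976 UMIs in the neonatal control). Thinned to 2000 UMIs per cell, the shares were 41.5%, 53.3% and 86.6%. Kcna2 was at 82.2, 198 and 536 CPM and Kcna6 at 67.1, 169 and 285 CPM. All 3 genes thus had the same order of libraries, with the neonatal control lowest and the adult control highest. Kcna1 and Kcna6 are neighbours on chromosome 6, and Kcna2 lies on chromosome 3.

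Kcnh8, a voltage-gated pore of the Kcnh family, was more even at 156, 217 and 135 CPM. Kcnk1, a 2-pore-domain channel, was at 28.1, 44.3 and 119 CPM. Kcnmb4, the beta subunit of the large-conductance channel found in neural cells, was at 107, 152 and 44.9 CPM. Kcnj10, the inward rectifier with which glia take up potassium, was at 57.7 and 72.2 CPM in the neonatal libraries and at 2.64 CPM, 1 UMI in 73 cells, in the adult control. Its age ratio was 3.87 (1.96 to 9.76). In the 13 adult injury Schwann cells Kcnj10 had 21 UMIs, in 8 cells and 9 of them in 1 cell, and Kcna1 73 UMIs, in all 13 cells. The share of Schwann cells with a Kcnj10 UMI was 38.0%, 23.0% and 1.37% in the first 3 libraries, or 8.06%, 12.2% and 0 after thinning.

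Kcna1, Kcna2, Kcna6, Kcnh8, Kcnj10, Kcnk1 and Kcnmb4 led in Schwann cells with any library left out. The adult injury library, with 13 Schwann cells, was never part of the Schwann means. Leaving it out could thus change only the means of other classes. Among the partner genes, Scn7a, a sodium channel family member of glia, also led in Schwann cells, at a mean of 608 CPM. Scn7a stood at 102, 271 and 1452 CPM, the same order of libraries as the Kcna genes. Of 14 potassium pump and cotransporter genes compared by age in Schwann cells, 10 were lower (19.4% of all genes) and 1 higher (16.1%) in the neonate, with Fxyd5 at -4.00. The 5 markers of neurons summed to 48.4, 78.8 and 140 CPM in these libraries and the 5 perineurial markers to 72.0, 88.1 and 230 CPM. Cycling markers went the other way, at 592, 237 and 7.92 CPM. Their part in the Schwann ratios was not tested.

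By count, 12 of 24 members were at least 2-fold higher in neonatal than in adult Schwann cells (16.1% of all genes) and 7 lower (19.4%). The 7 were Kcna1, Kcna2, Kcna6, Kcnk1, Kcnt2, Kcnk13 and Kcnn4, the lowest of them Kcnn4 at -4.45 and Kcnk13 at -3.70, and 11 of the 21 adult Kcnn4 UMIs came from 1 cell. Of the 12 higher members, 8 had no UMI in the 73 adult control cells, and for all 8 the limit that 3 counts set there was above the neonatal level, so for them a difference was not detectable at this depth. Only Kcnj10, Kcnmb4 (1.21), Kcnq5 (1.04) and Kcnab1 were higher with UMIs on both sides, and the Kcnab1 interval held 0. The members' median log2 ratio was 0.67 as fitted, beside -0.09 for all genes, and -0.68 with the 8 genes set at their limit, so its sign depended on them.

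After neonatal injury, 6 of 31 members in Schwann cells were at least 2-fold higher (8.74% of all genes) and 2 lower (8.45%), with a median of 0.48 beside 0.07. The highest were Kcnj12 at 3.05 (1.27 to 6.48, from 2 UMIs in the control), Kcnk13 at 2.55 (1.83 to 3.42), Kcnh2 at 2.00 (1.45 to 2.63) and Kcna6 at 1.33 (1.17 to 1.5). Kcnip1 and Kcnb2 were lower, at -1.31 and -1.29, with 8 and 7 UMIs after injury. Median depth of Schwann cells was 10976 UMIs in the control and 4103 after injury. Erythroid markers summed to 96.3 CPM in the control and 1095 after injury in Schwann cells, and to 92.9 and 1657 in muscle cells. The part of either in the injury ratios was not tested.

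In muscle cells 1 member led. Kcnn3, a small-conductance calcium-activated channel, was at 35.7, 29.7 and 59.0 CPM in the neonatal control, neonatal injury and adult control, 7.54-fold over stromal cells. Endothelial cells, outside the 5 classes, held it at a mean of 6.23 CPM, above the stromal 5.50. Kcnn3 was higher in progenitor cells, at 41.9 CPM over all libraries, than in differentiating cells at 18.8. Kcnk13, a 2-pore-domain channel, showed the reverse, at 23.8 and 290 CPM. By library Kcnk13 was at 86.2, 68.7 and 0 CPM, with a UMI in 32.7% and 20.1% of neonatal cells and in 0 of 55 adult control cells. It was at least 14.1-fold higher in the neonate. Progenitors made up 79.3% of neonatal and 96.4% of adult control muscle cells, and within progenitors the neonate was at least 4.65-fold higher. A Kcnk13 UMI was found in 0.546% to 1.73% of stromal cells. Muscle was not its highest class: mean Kcnk13 was at 91.5 CPM in immune, 51.6 in muscle and 17.7 in Schwann cells.

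Of 14 members compared by age in muscle cells, 5 were at least 2-fold higher in the neonate (22.0% of all genes) and 5 lower (15.7%), with a median of -0.17 as fitted and -0.30 with genes at 0 set at their limit, beside 0.13 for all genes. All 5 higher members had no UMI in the 55 adult cells, and the limit left 2 of them past 2-fold, Kcnk13 the higher. Kcnb2 was at least 1.75-fold higher. Lower in the neonate were Kcnt2 (-2.47), Kcns3 (-2.08), Kcnk5 (-1.97) and Kcnma1 (-1.79, at 29.7 and 102 CPM). Cycling markers in muscle cells summed to 1025 CPM in the neonatal and 16.3 in the adult control, and pericyte markers to 39.2 and 1194, and their part in these ratios was not tested. After neonatal injury 5 of 15 members were higher (8.03% of all genes) and 1 lower (7.62%), the median being 0.51 beside 0.03. Kcnq5 was at 25.0 CPM in the control and 139 after injury (2.47, 2.13 to 2.82), in progenitors 2.48 and in differentiating cells 2.85. Kcnmb4 and Kcnt2 were higher at 1.53 and 1.38, with 17 and 16 UMIs after injury. Dpp6, a partner of Kcnd channels, was at 77.7 and 305 CPM (1.97). Kcnk5 was lower with 1 UMI left (-2.08).

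Stromal cells held the most members, 21 at 5 CPM or more, but only 3 leaders, and each leader rested on 1 or 2 libraries. Kcnd2, a pore of fast A-type currents, was at 18.8, 53.2, 2.35 and 8.49 CPM in the neonatal control, neonatal injury, adult control and adult injury. Kcnj15, an inward rectifier, was at 0.506, 5.54, 0.973 and 23.4 CPM. Kcnmb2, a beta subunit that inactivates the large-conductance channel, was at 0.604, 0.667, 32.2 and 3.14 CPM, with the adult control above the rest. Leaving out the adult control library ended the lead of Kcnmb2 and Kcnd2, leaving out neonatal injury that of Kcnd2, and leaving out adult injury that of Kcnj15.

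Kcnma1 had the most UMIs of any member in stromal cells, and was named, like the subset values, after its values were seen. It was at 133, 218, 594 and 348 CPM. Over all libraries it was at 646 CPM in tenocytes (stromal cells with at least 5 of 8 tenocyte markers), 61.9 CPM in synovial lining cells and 169 CPM in the remaining stromal cells, so that 85.1% of tenocytes had a UMI. Tenocytes made up 16.0%, 24.7%, 56.2% and 16.4% of stromal cells in the 4 libraries, and the tenocyte markers summed to 1876, 2200, 10957 and 2085 CPM. Within tenocytes Kcnma1 was at 306, 316, 1006 and 593 CPM, with both adult libraries above both neonatal ones. In the remaining stromal cells it was at 103, 180, 67.9 and 299 CPM, with both injured libraries above both controls. Adult injury thus went opposite ways: -0.76 in tenocytes and 2.14 in the remaining cells. Kcnmb2 was at 1.48, 1.19, 56.7 and 16.6 CPM in tenocytes and at 0.366 CPM over all libraries in the remaining cells. Of the 129 Kcnmb2 UMIs of adult injury stromal cells, 38 were in 1 cell.

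By age, 20 of 61 members in stromal cells were at least 2-fold higher in the neonate (20.1% of all genes) and 10 lower (12.6%), with a median of 0.17 beside 0.15 for all genes. The members higher in the neonate included Kcne4 at 22.7 and 1.35 CPM (4.06, 3.69 to 4.48), Kcnb2, a delayed rectifier pore, at 31.3 and 2.52 CPM (3.63, 3.35 to 3.93), and Kcnj8 at 21.5 and 2.14 CPM (3.32, 3.02 to 3.65). Kcnq3 was also higher, with 26 UMIs against 1 (3.60, 1.56 to 9.52). Lower in the neonate were Kcnmb2 at -5.72 (-6.25 to -5.27), Kcnq5 at 14.5 and 257 CPM (-4.15, -4.25 to -4.05), Kcng1 at -2.30 and Kcnc4 at -2.20. Kcnq5 was also lower within tenocytes (-3.77) and within the remaining cells (-3.02).

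After neonatal injury 13 of 62 members in stromal cells were at least 2-fold higher (10.6% of all genes) and 5 lower (13.5%), with a median of 0.24 beside -0.05. After adult injury 19 of 56 were higher (18.3%) and 14 lower (16.7%), with a median of 0.26 beside 0.03. Of 54 members tested at both ages, 9 were at least 2-fold higher after both (4.15% of all genes) and 2 lower after both (3.96%). The 2 injury comparisons share no library. Cycling markers in stromal cells summed to 256, 73.4, 6.67 and 224 CPM in the 4 libraries and synovial lining markers to 765, 265, 6470 and 704, and their part in these counts was not tested.

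The 9 were 4 voltage-gated pores of the Kcnd and Kcnh families, the modifier pore Kcns1, the inward rectifier Kcnj15, the 2-pore-domain channel Kcnk6 and the auxiliary genes Kcne1 and Kcnip3. Kcnj15 had log2 ratios of 3.43 (2.92 to 4.04) in the neonate and 4.57 (4.14 to 5.08) in the adult. Its share of stromal cells with a UMI was 0.451%, 2.73%, 0.849% and 21.3%, or 0.123%, 0.739%, 0.154% and 4.57% after thinning, against 0% to 0.356% of immune cells. Endothelial cells, outside the 5 classes, held a Kcnj15 UMI in 2.36%, 4.03%, 0.925% and 8.33%, above the stromal share in all but the adult injury library, and their mean level was 4.18 CPM beside 7.62 in stromal cells. Stromal median depth was 11875 UMIs in the adult control and 22300 after adult injury. Kcns1, which forms no channel alone and modifies Kcnb pores, was at 0.294, 3.93, 0.214 and 3.02 CPM, ratios of 3.70 (3.05 to 4.52) and 3.75 (2.85 to 4.98). Kcne1, the subunit that slows Kcnq1 channels in heart, was at 0.261, 1.39, 0.119 and 4.48 CPM (2.38 and 5.10). For these 3 genes both injured libraries lay above both controls.

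Kcnk6 was at 4.08, 9.97, 4.65 and 12 CPM (1.29 and 1.36), and Kcnd1 at 1.59, 4.23, 1.92 and 6.35 CPM (1.41 and 1.72). Kcnd2 had ratios of 1.5 and 1.85, although its neonatal control level was above its adult injury level. Kcnh1 had ratios of 1.30 and 2.61, Kcnh3 of 1.87 and 1.41, and Kcnip3 of 1.11 and 1.89. Of the 9 genes, 5 (Kcnh1, Kcnh3, Kcne1, Kcns1 and Kcnip3) stood under 5 CPM in every stromal library, and Kcnh3 had 9 to 32 UMIs per library. Lower after both injuries were Kcnb2, at 31.3, 13.9, 2.52 and 0.341 CPM (-1.17 and -2.84), and Kcnj13, an inward rectifier of epithelia, with 29, 8, 64 and 1 UMIs (-1.61 and -5.39).

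The same direction was measured within parts of the stromal class, whose makeup differed between the libraries. These parts hold the same cells from which the 9 genes were picked, so they are no separate support. No share of all genes is given for the parts. In tenocytes 6 of the 9 genes had enough UMIs at each age, and all 6 were at least 2-fold higher after injury. Of these, 5 (Kcnd1, Kcnd2, Kcnj15, Kcnk6 and Kcns1) were tested at both ages, Kcnh1 in the neonate alone and Kcne1 in the adult alone. In the remaining stromal cells all 9 had enough UMIs and were higher at both ages, 8 past 2-fold in the neonate (Kcnh1 was not) and 6 in the adult (Kcnd2, Kcnip3 and Kcnk6 were not). In the 53 synovial lining cells of adult injury, 3 of 4 genes tested were past 2-fold, with Kcnd2 the exception. Kcnj15 within tenocytes was at 2.32 and 8.29 CPM in the neonate and 1.60 and 31.5 CPM in the adult, control first. In endothelial cells, 2 of 24 members were at least 2-fold higher after both injuries (1.52% of all genes), among them Kcnj15 at 1.65, 5.20, 1.15 and 8.72 CPM.

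**Figure D4:**
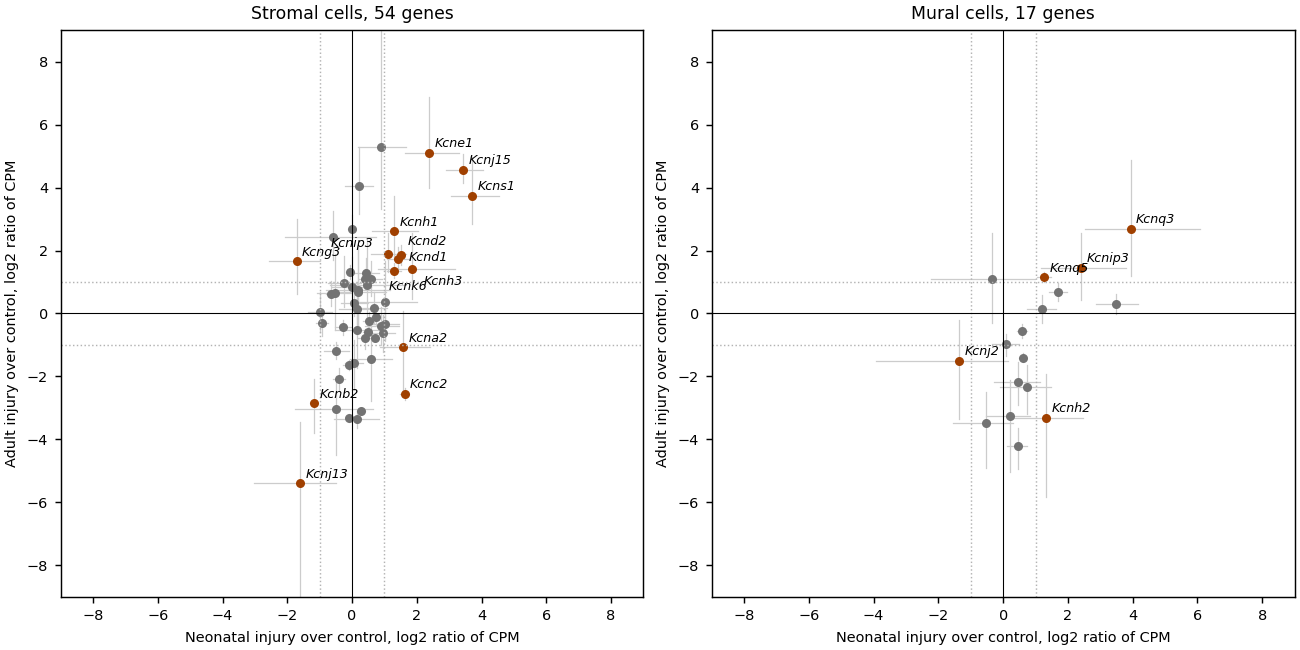
Log2 ratio of CPM after neonatal injury (horizontal) against after adult injury (vertical), 1 point per potassium channel gene tested at both ages, for 54 genes in stromal and 17 in mural cells. Grey lines are 95% counting intervals, some of which run past the axis, dotted lines mark 2-fold, and brown points are past 2-fold in both comparisons; 9 stromal genes lie in the upper right corner, led by Kcne1, Kcnj15 and Kcns1.

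Further stromal members were past 2-fold after adult injury and not after neonatal injury, and that difference between ages was not tested. Kcnt2, at 43.7, 41.1, 122 and 12.1 CPM, was lower after adult injury (-3.33, -3.46 to -3.19), within tenocytes -1.43 and in the remaining cells -4.43. Kcnmb2 was lower at -3.36, and Kcnc4 at -3.74 with 1 UMI left. Kcnq3, with 57 UMIs against 1, was higher at 5.30 (3.33 to 11.20), and Kcnk10 at 4.05, where 82 of its 153 UMIs lay in 1 cell. After neonatal injury Kcnh3 (1.87) was among the 4 highest ratios, and Kcnh5 (-1.97), Kcng3 (-1.71) and Kcnmb3 (-1.34) were the other low ones. Of the 9 partner genes of channels, 5 could be compared after adult injury: Abcc9 was higher (1.44, against 18.3% of all genes), and Dpp10 (-2.59), Lrrc55 (-2.02) and Amigo1 (-1.03) were lower (16.7% of all genes).

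In immune cells the leaders were Kcnab2 and Kcnq1. Kcnab2, a beta subunit of Kcna channels, was the most even of the leaders at 30.0, 45.7, 46.2 and 40.7 CPM. Kcnq1, a pore that pairs with Kcne subunits, was at 13.6, 7.09, 29.6 and 4.91 CPM, and did not lead without the adult control library. Endothelial cells, which are outside the 5 classes, held Kcnq1 at a mean of 17.2 CPM, above the immune mean of 13.8.

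Immune subsets, taken from marker lists, differed in their channels. Over all libraries Kcnq1 was at 124 CPM in mast cells and 6.92 in macrophages, and its known partner Kcne3 at 106 and 1.17. Macrophages held Kcnk13 at 100.3 CPM and Kcnn4, the intermediate-conductance calcium-activated channel of leukocytes, at 64.2. T or NK cells held Kcnn4 at 76.3 CPM, Kcnab2 at 74.3 and Kcnc1 at 38.6, and had no Kcnk13 UMI in 179 cells. Neutrophils held Kcnj2 at 50.2 CPM. Kcnq5 was at 764 CPM in B cells, 596 in T or NK cells, 431 in mast cells and 7.0 in macrophages.

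**Figure D5:**
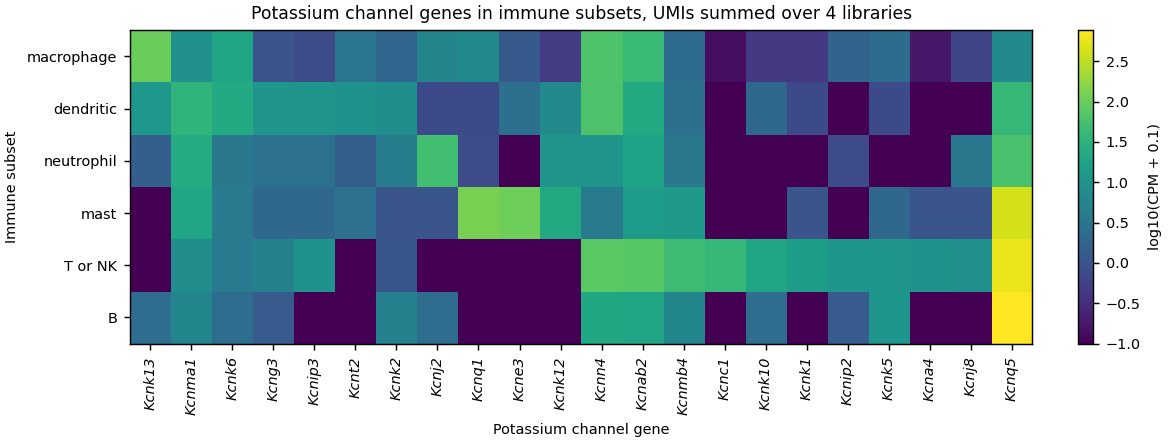
CPM (colour, log10 of CPM plus 0.1) of potassium channel genes (horizontal) in 6 immune subsets (vertical), UMIs summed over 4 libraries. Kcnq1 and Kcne3 stand out in mast cells, Kcnk13 in macrophages, Kcnj2 in neutrophils, and Kcnq5 in B, T or NK and mast cells, where it stood at 764, 596 and 431 CPM.

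By age, 7 of 22 members in immune cells were at least 2-fold higher in the neonate (15.3% of all genes) and 8 lower (11.7%), with a median of -0.60 beside 0.00 for all genes. Kcne3 was at 14.7 and 1.59 CPM (3.08). Kcnk12 had 50 UMIs against 0 and was at least 7.21-fold higher in the neonate. Kcna1 and Kcnb2 had 20 and 19 UMIs against 1 (2.56 and 2.49). Mast cells numbered 82, 39, 3 and 1 in the 4 libraries, and mast markers summed to 11084, 936, 237 and 165 CPM. By age, pooled Kcne3 went the same way as these markers, whereas pooled Kcnq1 was lower in the neonate. The part of mast cells in the pooled ratios was not tested. Within macrophages Kcnq1 had no UMI in 341 neonatal control cells and was at 36.8 CPM in the adult control, at least 51.9-fold higher. Kcnk13 was lower in the neonate at 35.8 against 185 CPM (-2.37), and within macrophages at 59.3 against 247 CPM (-2.06). Kcnd2 and Kcnip3 were lower at -2.26 and -1.95 with 7 and 10 neonatal UMIs. Kcnip4 was at 1.65 and 49.0 CPM (-4.84), but its 154 adult UMIs lay in 10 cells.

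Kcnn4 was the 1 immune member of 22 at least 2-fold higher after both injuries (2.56% of all genes). It was at 12.8, 35.1, 44.6 and 105 CPM, ratios of 1.45 (1.12 to 1.80) and 1.24 (0.99 to 1.5). Both injured libraries lay above their own controls, but the adult control lay above the neonatal injury. A Kcnn4 UMI was found in 9.22%, 11.5%, 23.1% and 33.9% of immune cells, or 2.46%, 5.72%, 9.18% and 14.1% after thinning. Unthinned, the share was 2.21%, 1.12%, 7.58% and 6.66% of stromal cells, 1.03% to 4.63% of endothelial cells and 0% to 0.935% of mural cells. Schwann cells, the next class, held Kcnn4 at a mean of 21.4 CPM, beside 49.5 in immune cells. In the adult control they stood at 55.4 CPM, above the immune 44.6, with 11 of their 21 UMIs in 1 cell. Within macrophages, which made up 51.5%, 80.8%, 60.9% and 76.9% of immune cells, Kcnn4 was 1.83 higher in the neonate and 1.33 in the adult. In T or NK cells of the adult it was -0.35.

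Kcnq5 and Kcnt2 were lower after both injuries in immune cells (2.91% of all genes). Kcnq5 was at 132, 37.7, 176 and 46.1 CPM, with both controls above both injured libraries (-1.81 and -1.93). That order was not seen within subsets rich in it: the ratio was -0.30 in mast cells after neonatal injury and 0.04 in T or NK cells after adult injury, and within macrophages it was 1.65 and -2.63. Kcnt2 had 19 of its 27 adult injury UMIs in 1 cell. In all, 4 of 32 members were higher after neonatal injury (8.33% of all genes) and 5 lower (14.7%), with a median of -0.12 as for all genes. Kcnk12 and Kcne3 were lowest at -3.49 and -3.09 and Kcnb2, with 3 UMIs left, was at -2.77. Kcnip4 was at 1.37, and Kcnab2 and Kcnk13, at 0.60 and 0.55, were under 2-fold.

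After adult injury 4 of 25 members in immune cells were higher (13.8% of all genes) and 9 lower (12.1%), with a median of -0.18 beside -0.07. Kcnj2 was at 2.87 and 9.67 CPM (1.68, 0.79 to 2.91) and neutrophils, which hold it, numbered 4 and 139. Within macrophages Kcnj2 was at 2.19 and 7.84 CPM (1.71, 0.57 to 3.50). Kcnc1 was higher with 33 UMIs against 1 (2.32). Kcnq1 was lower at 29.6 and 4.91 CPM (-2.59) and within macrophages at -2.71. Kcnk5 and Kcnt2 were lower at -2.34 and -2.45. Of 14 pump and cotransporter genes, 5 were lower (12.1% of all genes) and 1 higher (13.8%), with Fxyd2, a regulator of the sodium-potassium pump, at -4.54.

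Several members share sequence with another gene in the GENCODE annotation of GRCm38: Kcnmb1 overlaps Kcnip1, Kcnj13 overlaps Gigyf2, Kcnq1 overlaps Kcnq1ot1, Kcnab2 overlaps Nphp4, Kcnh1 overlaps Hhat and Kcnh3 overlaps Mcrs1, each on the opposite strand. Whether the deposited counts used strand and introns is not given in the sources used here, so for these genes the values are uncertain to the extent that reads of the partner were counted.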

How the data were processed

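Single-cell RNA libraries of mouse Achilles tendon were analysed in 4 groups, 1 library each. The deposited files hold raw UMI counts per gene and barcode, made by the authors on GRCm39 per the submitters' processing notes; per the file headers, Cell Ranger 8.0.1 was used. Whether introns or strand were counted is not given in the sources used here. Library totals were 68644322 to 128626912 counts.

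The barcode filter required 500 genes and 1000 UMIs or more, with mitochondrial transcripts at 15% or less. A cell entered a class with UMIs for at least 4 of its 10 markers and at least 3 more than for any of the other 7 gates, which include endothelial, chondrocyte and erythroid cells. This scoring rule was set after the data were seen. Between 16.2% and 21.0% of kept barcodes fell in no class. No doublet caller was run. The margin left out barcodes whose own markers did not outnumber those of every other class by at least 3. Kept cells could still hold markers of another class, such as a median of 2 stromal markers in neonatal control Schwann cells, so doublets can remain. Counts were summed per class and library as CPM, with exact Poisson intervals for levels and exact (Clopper-Pearson) binomial intervals for shares and ratios, at 95% and for counting error only. A library at 0 was bounded at 3 counts in that library. Ratios needed 20 UMIs over both libraries. Thinning drew 2000 UMIs per cell and left out shallower cells. With 1 library per group there was no test.

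The named genes rule took the leaders of each class and, per class and comparison, up to 4 highest and 4 lowest ratios whose interval left out 0. Genes 2-fold changed after both injuries, subset values and Kcnma1 in stromal cells were added after their values were seen. A few genes are not reported here by name and are left out of the figures. Members, marker lists and partner lists were chosen with earlier results of these data known. The ratio and interval code was tested on simulated data. Alternatives were other gates, barcode filters, removal of the barcodes of highest UMI total, per-cell means, another added count, other UMI minimums and each library left out. Python 3.11.15, numpy 2.4.6, pandas 2.3.3, scipy 1.17.1 and matplotlib 3.10.9 were used.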

Additional observations from a re-analysis of the deposited data

Results flagged for a closer look

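6 potassium channel genes were at least 2-fold higher than the control after injury at 1 age and at least 2-fold lower at the other, each with counting intervals that leave out 0. Members tested at both ages numbered 17 in mural, 54 in stromal, 22 in immune and 24 in endothelial cells. The share of all genes with such opposite ratios is not given, so the 6 cannot be set against it. The difference between the ages was not tested, because each group is 1 library. In mural cells, Kcnh2 had a log2 ratio of 1.33 (0.14 to 2.46) after neonatal and -3.31 (-5.84 to -1.91) after adult injury. In stromal cells, Kcnc2, a fast delayed rectifier pore, stood at 8.41, 25.9, 38.1 and 6.49 CPM in the neonatal control, neonatal injury, adult control and adult injury, with ratios of 1.62 (1.48 to 1.77) and -2.55 (-2.74 to -2.36). Over all libraries Kcnc2 was at 70.8 CPM in synovial lining cells and 1.91 CPM in tenocytes, and synovial lining cells were 1.27%, 0.218%, 8.80% and 3.27% of stromal cells; their part in the ratios was not tested. Kcng3, a modifier pore, went the other way in stromal cells, at -1.71 (-2.55 to -0.99) and 1.67 (0.61 to 2.99), on 72, 19, 9 and 29 UMIs.

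In immune cells, Kcnip4 had ratios of 1.37 (0.45 to 2.48) and -4.82 (-5.53 to -4.22), and 14 of its 24 adult injury UMIs lay in 1 cell. In endothelial cells, Kcnt2 had ratios of 1.66 (0.51 to 3.17) and -1.999 (-2.67 to -1.43) and Kcnk3 of 1.61 (0.46 to 3.12) and -1.50 (-2.88 to -0.43), both on 7 UMIs in the neonatal control.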

How the results depend on the processing

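Counts are of members past 2-fold in either direction unless said otherwise. No paired analysis was possible because each group holds 1 library. All 20 class leaders kept their lead under a gate of 5 or 3 markers, both other barcode filters and removal of the barcodes of highest UMI total. Leaving out 1 library at a time gave 7 to 9 leaders in mural, 7 to 8 in Schwann, 1 to 2 in muscle, 2 to 4 in stromal and 2 to 3 in immune cells. At 2-fold over the next class there were 5 leaders in stromal and 4 in immune cells, and with per-cell means 4 in immune cells and 2 in stromal cells, where Kcnmb2 was lost. With at least 5 UMIs, the age counts were 32 in mural (19 at 20 UMIs), 31 in Schwann (19), 17 in muscle (10) and 27 in immune cells (15); the neonatal injury counts 18 in mural (9), 21 in Schwann (8), 13 in muscle (6) and 18 in immune cells (9); and the adult injury counts 25 in mural (16) and 32 in immune cells (13). With at least 50 UMIs, the age counts were 9 in Schwann, 4 in muscle and 9 in immune cells, the neonatal injury counts 5 in mural, 5 in Schwann, 2 in muscle and 5 in immune cells, and the adult injury counts 9 in mural and 8 in immune cells. Adding 1 count gave 12 for age in Schwann cells. Removing the barcodes of highest UMI total gave 9 for age in immune cells, where Kcnb2 turned from 2.49 to -0.33. Per-cell means gave 5 for neonatal injury in Schwann cells. Of the genes past 2-fold after both injuries, the stromal count of 9 higher stayed within 1.5 times under every alternative run. The mural count of 3 higher became 1 at 50 UMIs and 5 at 5 UMIs, and the 1 lower became 0 at 50 UMIs and 0 with per-cell means. The 2 stromal genes lower became 1 at 50 UMIs and 1 without the barcodes of highest UMI total. The 1 immune gene higher became 0 with per-cell means, where the adult Kcnn4 ratio was 0.87, and 3 at 5 UMIs, and the 2 lower became 1 at 50 UMIs and 4 at 5 UMIs. Where a UMI minimum moved a count, more or fewer genes were tested. Neither their number nor the share of all genes past 2-fold at that minimum is given. Counts at 5 or 50 UMIs can therefore not be set beside the shares at 20 UMIs. The cause of the other shifts was not tested. With each cell thinned to 2000 UMIs, the share of Schwann cells with a Kcna1 UMI, mean over libraries, was 60.5% (80.6% before thinning), the share of muscle cells with a Kcnn3 UMI, mean over libraries, 11.1% (25.3%), and the share of immune cells with a Kcnab2 UMI, mean over libraries, 6.69% (25.2%). Depth limits the Schwann and muscle comparisons by age, which rest on 73 and 55 adult cells.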
